A study of Mus musculus with 8 samples.

Results

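The 8 genes described here encode the granule proteases granzyme A, B and K (Gzma, Gzmb, Gzmk), the granule membrane protein Nkg7, the pore former perforin (Prf1), the death ligand FasL (Fasl), the cysteine protease cathepsin W (Ctsw) and the cathepsin inhibitor Ctla2a. They were chosen by name, as granzymes and cytotoxic effector genes, out of 31053 genes in the deposited tables, and all 8 were found there. Their levels were followed in T cells from the lamina propria of the mouse colon, the tissue beneath its epithelial lining, in 8 droplet libraries of single cells.

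All mice were C57BL/6, 10 to 12 weeks old. Wildtype mice and mice that carry the knock-in allele that the sample titles name S203AKI were either untreated, on plain water, or given 2% dextran sulfate sodium (DSS, a polymer that injures the colon epithelium) for 7 days and then water for 3 days. Tissue was taken on day 10. Each of the 4 groups had 2 libraries, described by the submitters as independent biological replicates. Cells were enriched for CD4+ T cells with a bead kit, not sorted to purity, so that each library also held other cells.

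Cytotoxic lymphocytes kill by releasing granules in which perforin opens the target membrane to granzymes, and, by another route, by FasL binding Fas on the target. Natural killer (NK) cells and CD8 T cells are the classic users of both routes. Regulatory T cells (Tregs), which carry the transcription factor Foxp3 and are abundant in the colon, are also known to make granzyme B.

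The libraries held 34497509 to 46960005 unique molecular identifiers (UMIs, each 1 captured mRNA molecule) in 10563 to 16133 barcodes. The submitters' list of CD4 cells named 2749 to 4725 cells per library. Any pair of libraries shared 21 to 64 barcodes, at most 0.577% of the smaller library. From that list, 3449 cells with at least 1 Foxp3 UMI (146 to 961 per library) and 17233 cells with none (1588 to 2781 per library) fell into T cell clusters. A further 483 barcodes were CD8 T cells (36 to 99 per library), and 30 were NK cells (0 to 7 per library). Foxp3 stood at 360 to 506 counts per 1000000 UMIs (CPM) in Foxp3-positive cells, a level that the gate itself sets. It stood at 1.27 to 11.8 CPM in 9568 fibroblast-like barcodes off the submitters' list, which stood in for the background that free RNA gives. Fibroblast-like barcodes on the list, all with a Cd4 UMI, were left out, so this background may be too low. Whole fibroblast-like clusters, listed barcodes included, had Gzmb at up to 38.3 CPM and Nkg7 at 5.2 to 57.1 CPM. The summed level of 6 Treg markers, Foxp3 among them, was 3159 to 3646 CPM in Foxp3-positive and 1378 to 1815 CPM in Foxp3-negative cells. A Treg whose Foxp3 mRNA was missed counts as Foxp3-negative. The CD8 T cell gate was less clean, with Foxp3 at 7.36 to 204 CPM and no Cd4 UMI by definition. One cluster of T cells led by Ifng, Svs5 and the heat shock gene Hspa1b, followed by Svs4, drew 42.9% of its barcodes from the first untreated S203AKI library.

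Promoters of some members that differed between Foxp3-positive and Foxp3-negative cells, or after DSS, are printed from RefSeq (build GRCm38.p6), 5′ to 3′ on the gene's strand. Ctsw had no promoter entry, and Prf1 is not shown. Each promoter shown ends at the base before the RefSeq start, except that of Nkg7. In another annotation (GENCODE) the Gzmk gene starts further upstream, so that the Gzmk window printed here lies inside that gene. The Gzmb gene starts further downstream there, so that the Gzmb window does not reach that start. Capitals mark matches on either strand to 4 motifs: the Runx core TGTGGT, the T-box site TCACAC, the AP-1 site TGANTCA and the STAT palindrome TTCNNNGAA. Granzyme B at chr14:56262335-56262584 (minus strand), and granzyme K, which moved the opposite way, at chr13:113180966-113181215 (minus strand), come first. They are followed by Nkg7 at chr7:43436888-43437072 (plus strand), shown for its fall after DSS and without the 65 bases next to the start, which another annotation counts as exon, and by Fasl at chr1:161788496-161788745 (minus strand), whose change after DSS differed between the CD4 populations.

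Gzmb: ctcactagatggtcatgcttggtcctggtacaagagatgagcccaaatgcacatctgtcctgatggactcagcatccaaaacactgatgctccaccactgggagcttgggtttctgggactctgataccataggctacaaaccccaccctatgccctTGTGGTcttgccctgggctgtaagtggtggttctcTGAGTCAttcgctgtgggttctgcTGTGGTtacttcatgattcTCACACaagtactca
Gzmk: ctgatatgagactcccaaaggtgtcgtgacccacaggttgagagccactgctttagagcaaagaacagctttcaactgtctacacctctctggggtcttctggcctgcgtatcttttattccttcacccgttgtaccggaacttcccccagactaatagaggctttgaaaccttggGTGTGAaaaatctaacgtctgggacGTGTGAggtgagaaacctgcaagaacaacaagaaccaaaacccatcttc
Nkg7: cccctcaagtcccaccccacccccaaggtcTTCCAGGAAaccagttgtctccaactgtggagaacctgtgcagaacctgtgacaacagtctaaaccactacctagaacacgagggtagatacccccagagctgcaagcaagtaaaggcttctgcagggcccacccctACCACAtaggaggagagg
Fasl: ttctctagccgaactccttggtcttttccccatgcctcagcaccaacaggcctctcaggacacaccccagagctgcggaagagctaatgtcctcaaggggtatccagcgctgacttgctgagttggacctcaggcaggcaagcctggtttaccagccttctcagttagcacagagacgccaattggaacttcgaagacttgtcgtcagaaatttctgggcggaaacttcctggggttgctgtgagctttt

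The Gzmb window held a Runx core at 93 and another at 34 bases before the RefSeq start, an AP-1 match at 58 and a T-box site at 15. All of these Gzmb matches lie further from the GENCODE start. The Gzmk window held 2 T-box sites, at 74 and 49 bases before the start. The Nkg7 stretch held a STAT palindrome and a Runx core, and the Fasl window held no match. Over 32851 promoter windows of 250 bases, 14% held a Runx core, 12.3% a T-box site, 6.75% an AP-1 match and 7.02% a STAT palindrome. Among the 7 members with an entry, 4 held the Runx core in that window, 3 the T-box site, 2 the AP-1 match and 2 the STAT palindrome. A match is only a stretch of letters, and no binding was measured. In the GENCODE annotation of the same build, Gzma (chr13:113093825-113100981) and Gzmk (chr13:113171608-113225908) are neighbours on the minus strand of chromosome 13. Gzmb lies apart from them (chr14:56258838-56262260), as do Nkg7 (chr7:43437073-43438249), Prf1 (chr10:61297833-61304680), Fasl (chr1:161780689-161788495) and Ctsw (chr19:5465043-5468507). Ctla2a (chr13:60934155-60936625) lies beside its copy Ctla2b.

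Granzyme B was the one member that was higher in Foxp3-positive than in Foxp3-negative CD4 T cells, and 5 members were lower. In Foxp3-positive cells Gzmb stood at 483 and 662 CPM in the untreated wildtype libraries, 542 and 765 in untreated S203AKI, 532 and 529 in DSS wildtype, and 612 and 394 in DSS S203AKI. In Foxp3-negative cells the same libraries gave 136 and 193, 151 and 101, 134 and 165, and 100.4 and 92.8 CPM. The lowest Foxp3-positive library thus lay above the highest Foxp3-negative one. In fibroblast-like barcodes off the list Gzmb reached at most 23.1 CPM in a library. In whole fibroblast-like clusters, listed barcodes included, it reached at most 38.3 CPM. The fitted difference was 3.92-fold (log2 1.97 ± 0.15 SE, adjusted p = 2.45e-05, higher in 8 of 8 libraries), by edgeR's quasi-likelihood test with the library as a block and Benjamini-Hochberg adjustment. With Foxp3-positive cells kept only in the Treg-like clusters and Foxp3-negative cells only outside them, it was larger (log2 3.05). The test on all cells of both populations called 6 of the 8 members, against 36.3% of the 10019 genes tested (17.9% higher, 18.4% lower), so that the number of members called stands on a high background. Of all genes tested, 12.6% were higher in Foxp3-positive cells in 8 of 8 libraries and 5.36% were lower in 8 of 8. The 8 members had a median log2 difference of -0.47, against 0 for all genes tested.

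Foxp3-positive cells carried more UMIs (median 2776.5 to 4172 per library, against 1799 to 2606). Shares of cells were therefore compared after thinning cells to 1000 UMIs. Cells with fewer UMIs were left out, namely 37 of 3449 Foxp3-positive, 558 of 17233 Foxp3-negative and 186 of 9568 fibroblast-like ones. A Gzmb UMI was then seen in 26.9% of Foxp3-positive, 7.24% of Foxp3-negative and 0.927% of fibroblast-like cells. Without thinning the shares were 43.5% and 11.6% in the Foxp3-positive and Foxp3-negative cells.

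**Figure D1:**
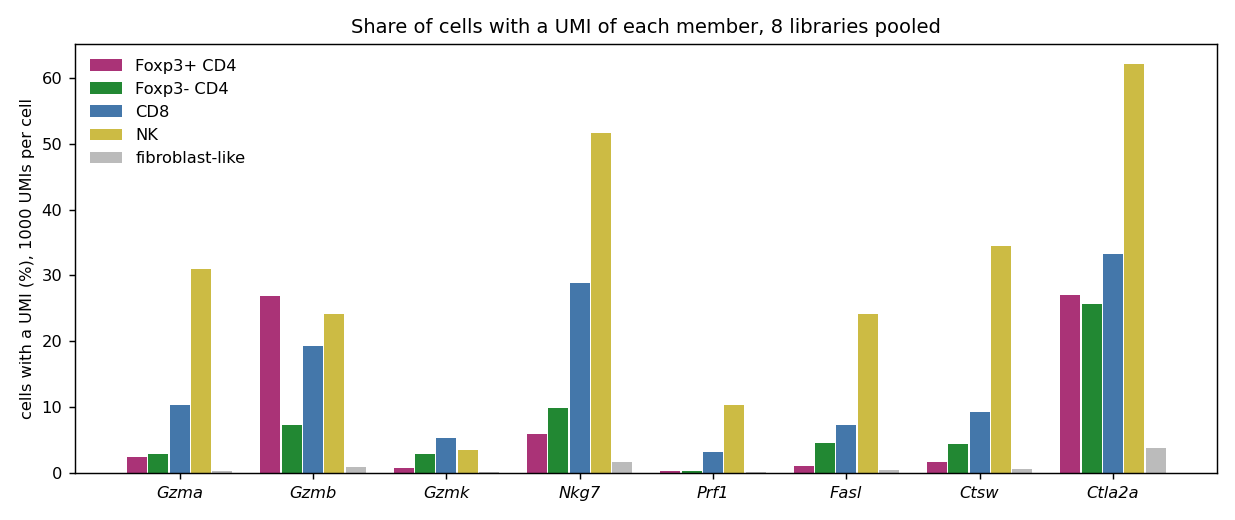
Share of cells (percent, vertical axis) with at least 1 UMI of each member after thinning cells to 1000 UMIs, 8 libraries pooled, 1 bar per population. Cells with fewer UMIs are left out. Gzmb reaches 26.9% in Foxp3-positive CD4 T cells and 7.24% in Foxp3-negative ones, while NK cells (29 cells after thinning) have the tallest bar for every member but Gzmb and Gzmk, among them Gzma (31.0%), Nkg7 (51.7%) and Ctla2a (62.1%).

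Granzyme K, a granzyme of broader trypsin-like specificity, ran the opposite way. Its Foxp3-positive levels were 3.47 to 13.5 CPM (median 6.89) and its Foxp3-negative levels 10.4 to 63.7 (median 22.2). It was 4.47-fold lower in Foxp3-positive cells (log2 -2.16 ± 0.13 SE, adjusted p = 1.2e-14, edgeR), lower in 8 of 8 libraries. The fibroblast-like background for Gzmk was at most 2.92 CPM, while macrophage-like barcodes reached 7.09 CPM and B-like ones 4.93 CPM. FasL showed the same order, with 9.66 to 39.3 CPM in Foxp3-positive cells (median 15.6) and 29.7 to 54.1 in Foxp3-negative ones (median 39.8; log2 -1.54 ± 0.20 SE, adjusted p = 0.000141, edgeR). Cathepsin W, found mainly in NK and CD8 T cells, lay at 12.7 to 45.4 CPM against 29.9 to 68.6 (log2 -1.19 ± 0.10 SE, adjusted p = 1.21e-11, edgeR). Fasl and Ctsw were lower in Foxp3-positive cells in 8 of 8 libraries, although the ranges of both overlapped across libraries.

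Nkg7, a protein needed for the release of cytotoxic granules, and Ctla2a differed less. Nkg7 was 1.48-fold lower in Foxp3-positive cells (log2 -0.57 ± 0.13 SE, adjusted p = 0.0087, edgeR) and lower in 7 of 8 libraries. Without the library block its adjusted p was 0.271. Ctla2a was 1.25-fold lower (log2 -0.32 ± 0.05 SE, adjusted p = 2.46e-06, edgeR), in 8 of 8 libraries. That call was lost when Foxp3-positive cells were kept only in the Treg-like clusters and Foxp3-negative cells only outside them (log2 -0.06 ± 0.06 SE, adjusted p = 0.533, edgeR), and also without the library block (adjusted p = 0.0619). Ctla2a has the close copy Ctla2b, and reads shared by both may not have been counted for either.

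Granzyme A did not pass the test (log2 -0.14 ± 0.39 SE, adjusted p = 0.827, edgeR). Its Foxp3-positive levels ran from 38.2 to 139 CPM and its Foxp3-negative levels from 24.4 to 143, and it was higher in Foxp3-positive cells in 3 of 8 libraries. Perforin was low in both populations, with 0 to 4.48 CPM in Foxp3-positive and 0.382 to 4.44 CPM in Foxp3-negative cells (log2 -0.37 ± 0.32 SE, adjusted p = 0.396, edgeR). After thinning, 0.235% and 0.276% of these cells had a Prf1 UMI, above the 0.064% of fibroblast-like and below the 0.419% of B-like and the 0.961% of plasma-like barcodes. Over all libraries Prf1 was 2.58 CPM in Foxp3-positive and 2.51 CPM in Foxp3-negative cells, against 0.854 CPM in fibroblast-like, 6.96 in B-like and 8.73 in plasma-like barcodes. Whether free RNA gave these Prf1 UMIs was not tested.

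In the wider lists of cytotoxic genes, counts of called genes stand against the 17.9% higher and 18.4% lower among all genes tested, so that nothing particular to a list is read from them. The transcription factors split. Eomes (log2 -2.56) and Tbx21, which encodes T-bet (log2 -1.12), were lower in Foxp3-positive cells together with Zeb2 (log2 -0.64), while Hopx (log2 0.81) was higher. In all, 3 of 7 tested factors were lower and 2 higher. The effector cytokine list had 3 of 5 genes lower and none higher, led by Ifng (log2 -1.74) and the chemokine gene Ccl5 (log2 -1.28). Among inhibitors, Serpinb9, the inhibitor of granzyme B, was lower (log2 -1.06 ± 0.14 SE, adjusted p = 0.000101, edgeR) although its target protease was higher. Serpinb6a (log2 0.78) and Serpina3g (log2 0.71) were higher, and the serpin list had 3 higher and 2 lower of 5 tested. In the granzyme processing and cathepsin list 3 of 7 were higher and 2 lower, with Ctsh (log2 0.94) and Cst7, an inhibitor of the granzyme-activating cathepsin C (log2 0.69), higher and Ctsl lower (log2 -0.65). Of the 10 granule and exocytosis genes, 4 were higher and 2 lower, Ap3b1 (log2 0.56) and Lyst (log2 -0.65) being the largest in each direction. In the death receptor list 2 of 6 tested genes were higher and 1, Fas, was lower (log2 -0.43).

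**Figure D2:**
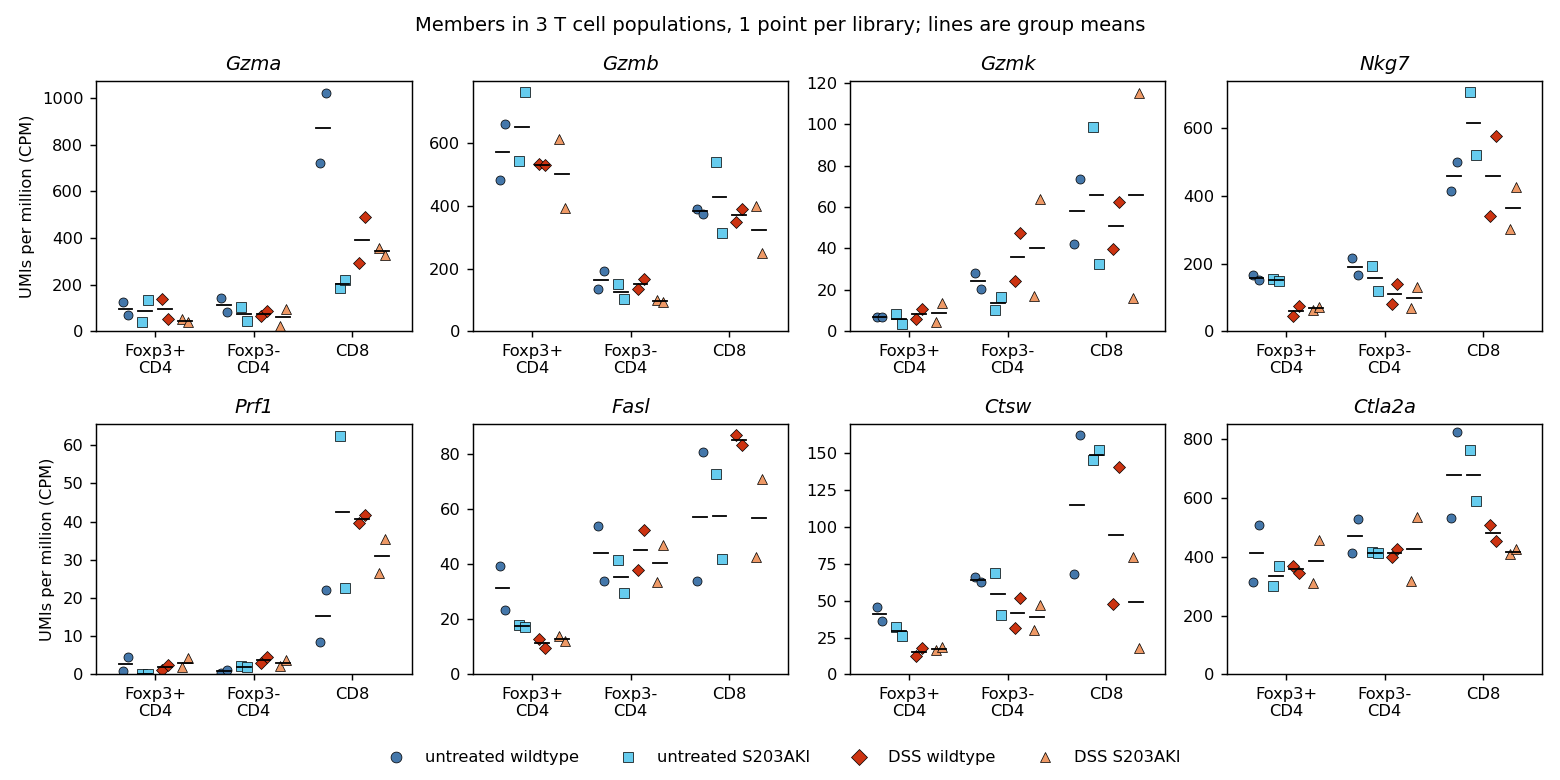
Level of each member (CPM, linear axis from 0, 1 panel per gene) in Foxp3-positive CD4, Foxp3-negative CD4 and CD8 T cells, with 1 point per library, a symbol per group and a line at each group mean of 2 libraries. Gzmb is higher in Foxp3-positive than in Foxp3-negative cells in every library, Gzmk, Fasl and Ctsw are lower, and Prf1 reaches 8.46 to 62.4 CPM in CD8 T cells, the lowest point being 1 UMI.

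Within the Foxp3-positive cells granzyme A and granzyme B stood in opposite order in the Treg-like clusters. The cells were clustered without the members and the wider lists, so that the members' levels played no role in the clusters. Clusters were not compared by a test. Cluster 4, led by Foxp3, Gzmb and the cytokine gene Il10, held 1697 Foxp3-positive cells (49.2%), and cluster 6, led by Il1rl1 (the IL-33 receptor), Ikzf2 and Tnfrsf9, held 853 (24.7%). Gzmb ran from 554 to 1411 CPM (median 820) in cluster 4 and from 222 to 739 CPM (median 382) in cluster 6, and it was higher in cluster 4 in 8 of 8 libraries. Granzyme A was the reverse, with 3.05 to 84.9 CPM (median 10.1) in cluster 4 and 70.7 to 736 (median 147) in cluster 6, higher in cluster 6 in 8 of 8 libraries. Ctla2a (medians 268 and 652 CPM) and Ctsw (medians 10.7 and 38.9 CPM) were also higher in cluster 6 in 8 of 8 libraries. Of all 8418 genes, 3.6% were higher in cluster 4 and 2.79% higher in cluster 6 in 8 of 8 libraries. Nkg7 was higher in cluster 6 in 5 of 8 libraries, and Gzmk (medians 4.31 and 6.05 CPM) in 4 of 8, against 3 where it was higher in cluster 4.

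**Figure D3:**
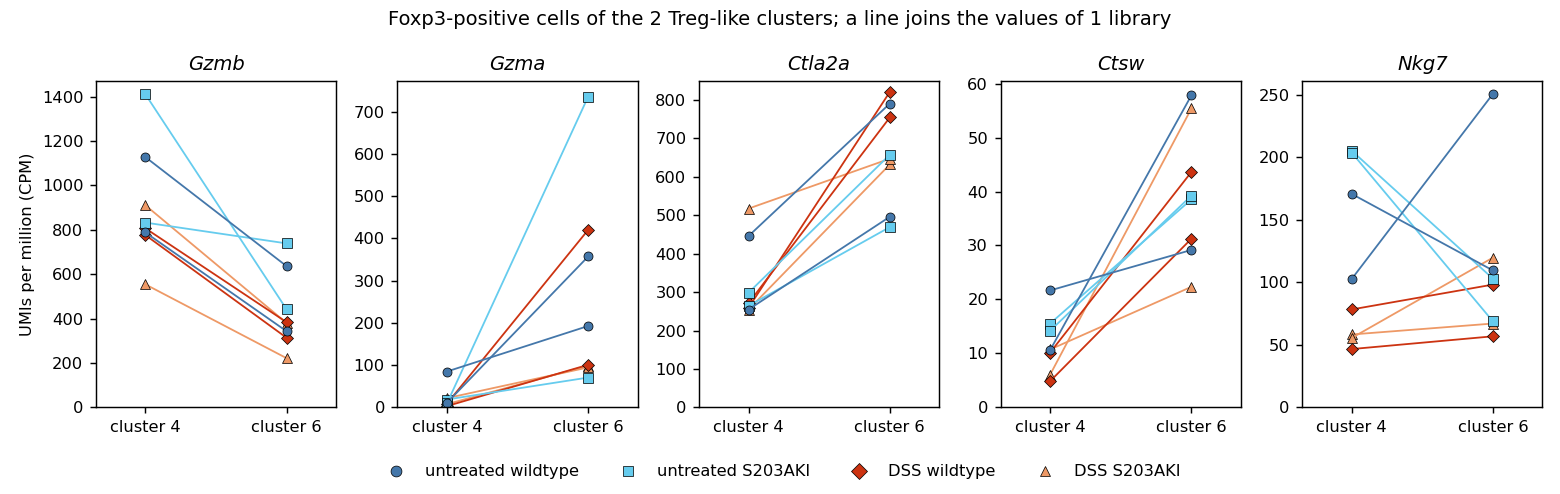
Levels (CPM, vertical axis from 0, 1 panel per gene) in the Foxp3-positive cells of clusters 4 and 6, with a line joining the values of 1 library. Every line for Gzmb falls from cluster 4 to cluster 6, and every line for Gzma, Ctla2a and Ctsw rises.

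Cell by cell, after thinning, the members were compared for joint detection. Among Foxp3-positive cells, Gzma was seen in 13 (1.42%) of the 917 cells with a Gzmb UMI and in 2.85% of the cells without one. The share was higher with Gzmb in 0 of 8 libraries. Of the 84 Foxp3-positive cells with a Gzma UMI, 51.2% had a Ctla2a UMI, against 26.4% of the others. Gzma was more frequent in Ctla2a-bearing cells in 8 of 8 libraries (4.67% against 1.65%). Gzmb and Nkg7 did go together in Foxp3-positive cells, with Nkg7 in 8.94% of Gzmb-bearing and 4.77% of other cells, again in 8 of 8 libraries.

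Members were also seen together in Foxp3-negative cells. Of 482 such cells with a Gzma UMI, 19.5% had Gzmb, 10.6% Gzmk and 22.8% Nkg7, against 6.88%, 2.58% and 9.55% of cells without Gzma. Each of these 3 shares was higher in Gzma-bearing cells in 8 of 8 libraries. Nkg7-bearing cells (1657) had Fasl in 10.1% and Ctsw in 10.1%, against 3.90% and 3.82% of the others, in 8 of 8 libraries each. In Foxp3-positive cells the shares rest on fewer cells. Of the 84 with Gzma, 2 had Gzmk (2.38%, against 0.661% without Gzma) and 7 had Nkg7 (8.33% against 5.83%), and 1 library held at least 20 such cells. Of the 201 with Nkg7, 8 had Fasl (3.98% against 0.934%, higher in 5 of the 6 libraries with at least 20 such cells) and 11 had Ctsw (5.47% against 1.34%, higher in 4 of 6). Gzmb was seen in 15.5% of Foxp3-positive cells with and 27.2% without Gzma. Differences between the populations in these shares were not tested. Cluster 0, led by Trat1, Ccl5 and Gimap3, held 5823 of the CD4 T cells, with Gzmk at 59.6, Fasl at 76.6 and Nkg7 at 204 CPM. Cluster 17, the cluster led by Ifng, Svs5 and Hspa1b that leaned on 1 library, had Gzmk at 16.2, Fasl at 64.9 and Nkg7 at 261 CPM. The 17 CD4 T cells of cluster 26, led by Ifit1, had Gzmk at 163, Fasl at 93.3 and Nkg7 at 233 CPM, on few cells. The 50 barcodes of that cluster matched CD8 T cell markers best, with Cd8a at 25.2 and Cd8b1 at 58.7 CPM. At most 2 members were detected in nearly all CD4 T cells: 1.2% of Foxp3-positive and 2.32% of Foxp3-negative cells had 3 or more after thinning. In single libraries of CD8 T cells 10.3% to 22.2% had 3 or more, and of fibroblast-like barcodes 0.107% over all libraries.

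After DSS, 3 members fell in Foxp3-positive cells. Nkg7 stood at 166 and 150 CPM in untreated wildtype, 154 and 147 in untreated S203AKI, 46.3 and 74.4 in DSS wildtype and 62.3 and 72.4 in DSS S203AKI. All 4 DSS libraries thus lay below all 4 untreated ones (154 ± 8.36 against 63.9 ± 12.8 CPM, SD, n = 4 each). Nkg7 fell 2.51-fold (log2 -1.33 ± 0.14 SE, adjusted p = 8.27e-06, edgeR, averaged over both genotypes). In wildtype alone its log2 change was -1.46 (adjusted p = 0.000345) and in S203AKI alone -1.19 (adjusted p = 0.00191, edgeR). Both calls within 1 genotype were lost with T cells chosen by UMIs alone, at log2 -1.97 and -1.11 (adjusted p = 0.199 and 0.341, edgeR). Among these 8418 genes, 6.34% were called lower over both genotypes and 7.65% had all DSS libraries below all untreated ones. Within wildtype 3 members were called lower, where 0.998% of genes were called lower and 1.67% in either direction. Within S203AKI it was 1, Nkg7, against 1.72% called lower and 2.84% in either direction.

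Cathepsin W in Foxp3-positive cells read 45.4 and 35.9 CPM in untreated wildtype, 32.4 and 26.0 in untreated S203AKI, 12.7 and 17.9 in DSS wildtype, and 16.3 and 18.7 in DSS S203AKI. The treatment groups did not overlap, and Ctsw fell 2.19-fold (log2 -1.13 ± 0.20 SE, adjusted p = 0.00115, edgeR). FasL read 39.3 and 23.5, 18.0 and 17.4, 13.01 and 9.66, and 13.9 and 12.0 CPM in the same order, again without overlap. It fell 2.02-fold (log2 -1.01 ± 0.24 SE, adjusted p = 0.0109, edgeR). In S203AKI alone neither Ctsw (log2 -0.77 ± 0.29 SE, adjusted p = 0.157) nor Fasl (log2 -0.53 ± 0.37 SE, adjusted p = 0.455, edgeR) passed, while in wildtype alone both were at -1.49 (adjusted p = 0.00613 and 0.0162, edgeR). The wildtype call was lost in 3 of 16 alternatives for Ctsw and in 5 of 16 for Fasl, for both without the first untreated wildtype library (log2 -1.30 and -1.07, adjusted p = 0.113 and 0.267), and for Fasl also without the second DSS wildtype library (log2 -1.31, adjusted p = 0.121, edgeR). Leaving out 1 library leaves 1 in its group, which is then assumed to vary like the other groups. The Fasl call was lost without the first untreated wildtype library (log2 -0.80, adjusted p = 0.080) or the first untreated S203AKI library (log2 -0.99, adjusted p = 0.0695, edgeR). Ctsw (log2 -0.39, adjusted p = 0.409, edgeR) and Fasl (log2 -0.76, adjusted p = 0.188, edgeR) also lost their calls when the Foxp3-positive cells were limited to the Treg-like clusters.

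The granzymes themselves did not pass the test in Foxp3-positive cells. Gzmb was 613 ± 126 CPM untreated and 517 ± 90.5 CPM after DSS (SD, n = 4 each; log2 -0.29 ± 0.16 SE, adjusted p = 0.272, edgeR). Without the first DSS S203AKI library, the highest of the DSS values, Gzmb passed (log2 -0.45 ± 0.13 SE, adjusted p = 0.0235, edgeR). Gzma (log2 -0.48 ± 0.57 SE, adjusted p = 0.656) and Gzmk (log2 0.39 ± 0.44 SE, adjusted p = 0.605, edgeR) had large errors. Ctla2a was at -0.04 ± 0.17 on the log2 scale (adjusted p = 0.922, edgeR), and Prf1 was too low to be tested. The 7 members tested had a median log2 change of -0.48, against 0.01 for all genes tested.

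Several other values moved with this comparison. Foxp3-positive cells numbered 146 to 220 per untreated and 463 to 961 per DSS library. Foxp3-negative cells numbered 1588 to 1983 and 2290 to 2781. Of 6 Treg markers in Foxp3-positive cells, 3 were higher and 1 lower after DSS, with overlapping sums (3159 to 3386 and 3195 to 3646 CPM). In fibroblast-like barcodes Nkg7 averaged 31.9 CPM in untreated wildtype and 19.2 in untreated S203AKI, and 10.8 and 12.6 after DSS, so that its mean level there was also lower after DSS. Ctsw averaged 11.5 and 6.32 CPM there before and 4.38 and 5.85 after DSS, and Fasl 6.73 and 2.71 before and 4.53 and 4.44 after. The summed level of 6 T cell markers in Foxp3-positive cells was 3462 to 3926 CPM untreated and 2808 to 3359 after DSS, with 3 of the 6 genes lower and none higher. Neutrophil markers summed to 0 CPM in every untreated and 2.62 to 7.73 CPM in the DSS libraries (3 of 5 genes higher), and 2 of 7 macrophage or monocyte genes were higher with overlapping sums (76.2 to 106 and 70.1 to 212 CPM). The summed NK or ILC1 markers overlapped (1.2 to 5.2 CPM untreated, 3.02 to 3.93 after DSS), and 5 of the 9, Ncr1, Klra4, Klra7, Klra8 and Klra9, were at 0. Cluster 6 made up 18.8% of Foxp3-positive cells in the untreated and 26.4% in the DSS libraries, and cluster 4 51.4% and 48.6%. The part of free RNA, of the cell numbers and of these marker shifts in the result was not tested. Within cluster 4 alone, Nkg7 was 103 to 205 CPM untreated and 46.6 to 78.3 CPM after DSS, without overlap, as were 5.74% of genes in that direction. Within cluster 6 the Nkg7 values overlapped (68.7 to 251 against 56.8 to 120 CPM), as did Fasl and Ctsw in both clusters.

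**Figure D4:**
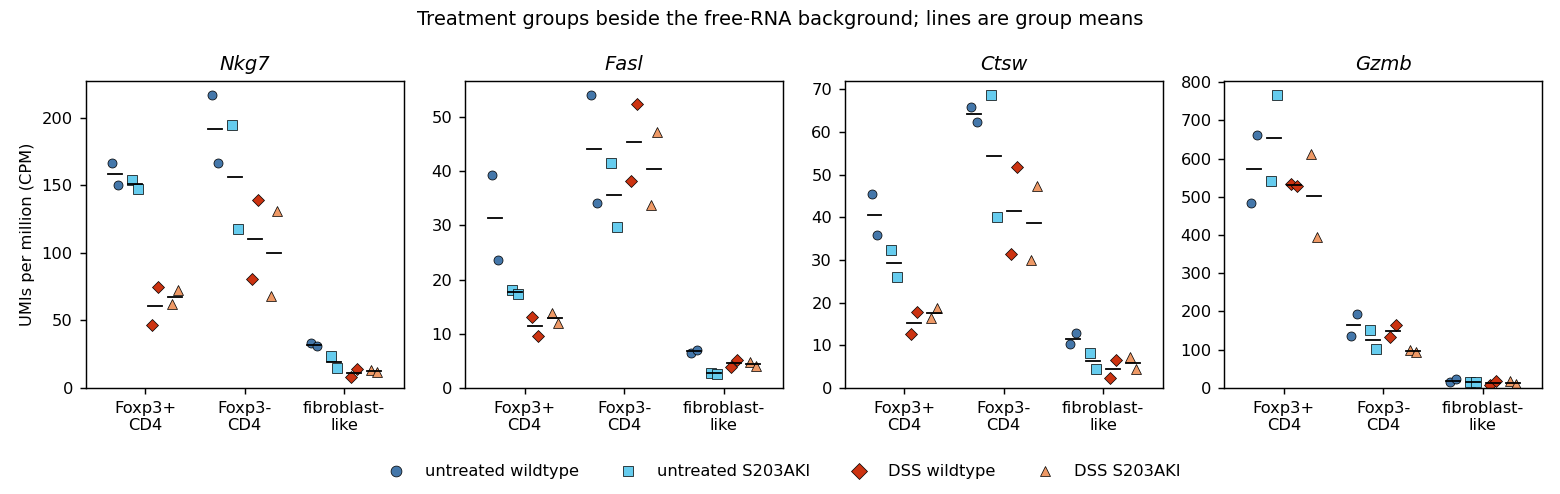
Levels (CPM, vertical axis from 0, 1 panel per gene) in Foxp3-positive cells, Foxp3-negative cells and fibroblast-like barcodes, with 1 point per library, a symbol per group and lines at group means. In Foxp3-positive cells all DSS points for Nkg7, Fasl and Ctsw lie below all untreated points. The fibroblast-like points, without barcodes on the submitters' list, stand in for the background that free RNA gives and may be too low.

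In Foxp3-negative cells perforin was the 1 member of 8 that passed the test after DSS, and was called higher, with 15.7% of 10636 genes called in either direction and 7.78% called higher. Prf1 read 0.382 and 1.25 CPM in untreated wildtype, 2.07 and 1.98 in untreated S203AKI, 3.02 and 4.44 in DSS wildtype, and 2.19 and 3.77 in DSS S203AKI (log2 1.31 ± 0.38 SE, adjusted p = 0.0349, edgeR). The lowest of these levels rested on 2 UMIs. The highest untreated and the lowest DSS level, both in S203AKI, rested on 11 and 12 UMIs. The treatment groups did not overlap for Prf1, as was true of 14% of genes in that direction. All of these levels are under those of B-like barcodes (5.11 to 12.0 CPM), while fibroblast-like barcodes had 0.383 to 1.79 CPM, and the call was lost in 7 of 15 alternatives, among them leaving out any of 6 libraries (adjusted p from 0.0696 to 0.123, edgeR). The summed NK or ILC1 markers were also higher after DSS in these cells (4.2 to 9.91 CPM untreated, 10.8 to 21.2 after DSS, 1 of 9 genes higher). So were neutrophil markers (0.533 to 1.53 against 3.7 to 12 CPM, 3 of 5 genes higher) and dendritic cell markers (117 to 140 against 146 to 238 CPM, 1 of 7 higher), while T cell markers were lower (3514 to 4029 against 2734 to 3303 CPM, 2 of 6 lower). Their part in the Prf1 difference was not tested.

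The other members of Foxp3-negative cells overlapped between treatments. Nkg7 read 217 and 166 CPM in untreated wildtype, 194 and 118 in untreated S203AKI, 80.6 and 139 in DSS wildtype, and 68.2 and 131 in DSS S203AKI (log2 -0.77 ± 0.33 SE, adjusted p = 0.192, edgeR). Ctsw (log2 -0.60 ± 0.25 SE, adjusted p = 0.156) and Gzmb (log2 -0.31 ± 0.15 SE, adjusted p = 0.18) had lower estimates and Gzmk a higher one (log2 1.03 ± 0.56 SE, adjusted p = 0.284, edgeR). FasL was at 0.07 ± 0.20, Gzma at -0.49 ± 0.56 and Ctla2a at -0.12 ± 0.16 on the log2 scale. Ctsw, Gzmb and Ctla2a were each called in 1 of 16 alternatives. Neither genotype alone had a member called in Foxp3-negative cells, where 0.226% of genes were called in wildtype and 3.94% in S203AKI.

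Whether the DSS change differed between the CD4 populations was tested directly, and Fasl was called. The change in Foxp3-positive cells minus that in Foxp3-negative cells was -1.15 ± 0.23 SE on the log2 scale for Fasl (adjusted p = 0.000625, edgeR), among 10654 genes of which 2.36% were called in that direction and 5.29% in either. Limiting Foxp3-positive cells to the Treg-like clusters and Foxp3-negative cells to the others gave -1.04 ± 0.31 SE (adjusted p = 0.091, edgeR). The differences for Nkg7 (log2 -0.54 ± 0.16 SE, adjusted p = 0.0636) and Ctsw (log2 -0.54 ± 0.19 SE, adjusted p = 0.079, edgeR) missed the threshold. Without the first DSS S203AKI library both passed, Nkg7 at -0.68 (adjusted p = 1.76e-05) and Ctsw at -0.62 (adjusted p = 0.0347, edgeR). Nkg7 also passed without the first untreated wildtype (adjusted p = 0.0219) or the second untreated S203AKI library (adjusted p = 0.0463, edgeR). In all, the Nkg7 difference passed in 9 of 16 alternatives, DESeq2 among them (adjusted p = 0.0448). Those for Gzmb (log2 0.03 ± 0.31 SE) and Gzma (log2 0.07 ± 0.87 SE) were near 0 with wide errors. Prf1 (log2 -0.49 ± 0.87 SE, adjusted p = 0.851) and Gzmk (log2 -0.63 ± 0.37 SE, adjusted p = 0.386, edgeR) did not pass either.

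Of the wider lists in Foxp3-positive cells after DSS, where 6.34% of all genes tested were called lower and 11.9% either way, the transcription factors had the most called genes. Of 6 transcription factors tested, 3 fell, namely Tbx21 (log2 -1.47 ± 0.29 SE, adjusted p = 0.00299), Id2 (log2 -0.71 ± 0.09 SE, adjusted p = 7.46e-05) and Runx3 (log2 -0.37 ± 0.10 SE, adjusted p = 0.0204, edgeR), and Hopx rose (log2 0.63). Tbx21, Runx3, Id2 and Zeb2 changed more negatively than in Foxp3-negative cells by the test of the difference (4 of 7, none the other way, against 2.36% of all genes called in that direction), with Tbx21 at -0.94 ± 0.27 SE (adjusted p = 0.0248, edgeR). In the other lists, Rab27a, which docks granules at the membrane (log2 0.52), and the caspase-8 regulator Cflar (log2 0.45) rose and Serpina3g fell (log2 -0.81). No gene of the granzyme processing list (7 tested) or the cytokine list (5 tested) passed in Foxp3-positive cells. In Foxp3-negative cells Ifng (log2 -0.62) and Xcl1 (log2 -1.19) fell, as did Fas (log2 -0.57), Serpina3f (log2 -0.94) and Id2 (log2 -0.44). Rab27a (log2 0.57), Hopx (log2 0.63) and Cflar (log2 0.32) rose there.

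**Figure D5:**
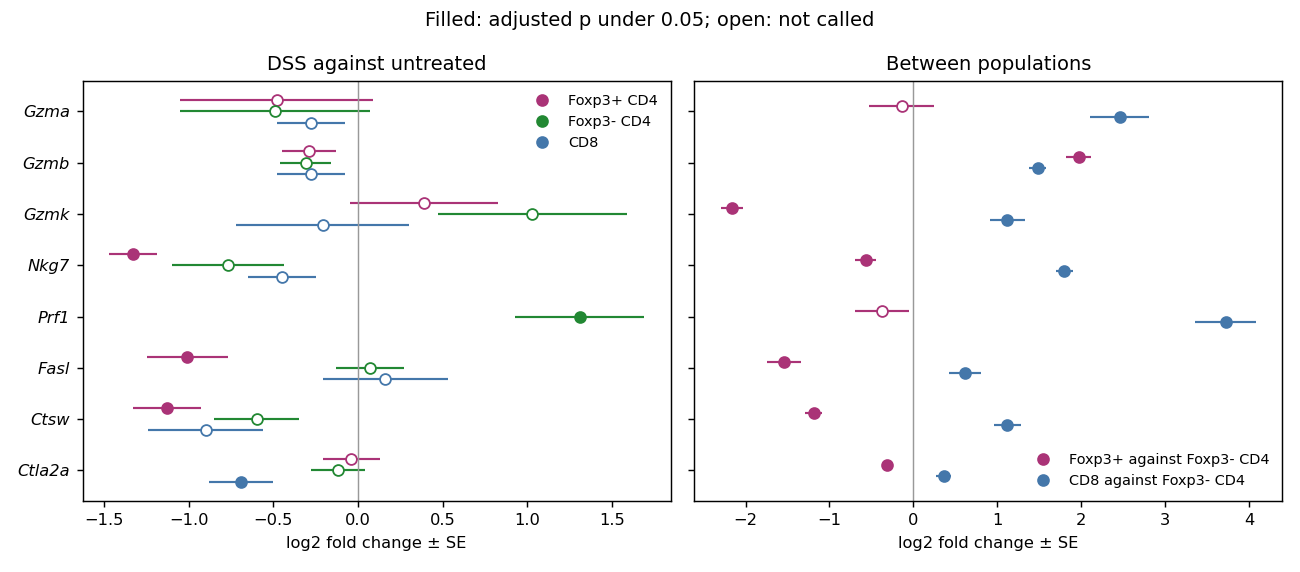
Fitted log2 fold changes (horizontal axis) with standard errors for each member, for DSS against untreated in 3 populations and between populations; filled points have an adjusted p under 0.05 and open points do not. Nkg7, Fasl and Ctsw lie left of 0 in Foxp3-positive cells after DSS, and all 8 members lie right of 0 in CD8 T cells against Foxp3-negative CD4 T cells.

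The S203AKI allele gave no called gene. In Foxp3-positive and in Foxp3-negative cells, S203AKI against wildtype called 0 genes (0%) in untreated mice, 0 (0%) after DSS and 0 (0%) for the difference in DSS effect between genotypes, by edgeR. At an unadjusted p under 0.05 there were 465, 172 and 362 of 8418 genes in Foxp3-positive cells. Foxp3-negative cells had 519, 188 and 438 of 10636. A share of 0.05 of the genes is expected under that limit where none differs. DESeq2 also called none of the members in these comparisons. Without the filter on low counts, Gzmb was called lower in S203AKI after DSS in Foxp3-negative cells (log2 -0.64 ± 0.14 SE, adjusted p = 0.0437, edgeR). With 2 libraries a group, the spread between libraries of 1 group limits what can be seen: Gzma in untreated S203AKI Foxp3-positive cells was 38.4 in one library and 135 CPM in the other. Nkg7 in untreated Foxp3-positive cells was close in both genotypes, with 158 ± 11.5 CPM in wildtype and 151 ± 4.53 CPM in S203AKI (SD, n = 2 each).

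CD8 T cells were higher than Foxp3-negative CD4 T cells in all 8 members, where 6.19% of 8914 genes were called in either direction and 1.95% called higher. Perforin read 8.46 and 22.1 CPM in untreated wildtype, 62.4 and 22.7 in untreated S203AKI, 39.6 and 41.7 in DSS wildtype, and 26.6 and 35.5 in DSS S203AKI. It was 13.2-fold higher than in Foxp3-negative cells (log2 3.72 ± 0.36 SE, adjusted p = 5.97e-22, edgeR). Gzma, at 187 to 1023 CPM (median 342), was 5.49-fold higher (log2 2.46 ± 0.35 SE, adjusted p = 0.00583, edgeR). Nkg7 was 3.48-fold (log2 1.80 ± 0.10 SE) and Gzmb 2.79-fold (log2 1.48 ± 0.10 SE) higher. Each of these 4 was higher in 8 of 8 libraries, as were 1.02% of all genes tested. Gzmk (2.17-fold), Ctsw (2.18-fold), Fasl (1.52-fold) and Ctla2a (1.28-fold) were higher in 7 of 8 libraries, and the Fasl call (adjusted p = 0.0259, edgeR) was lost in 10 of 18 alternatives. Without the library block the Gzmk (adjusted p = 0.511), Ctsw (0.0981) and Ctla2a (0.247) calls were lost too, and with T cells chosen by UMIs alone those of Ctsw (0.0678) and Ctla2a (0.19). Ctla2a also lost its call without the first untreated S203AKI library (adjusted p = 0.0944, edgeR). The median log2 difference of the members was 1.3, against -0.05 for all genes tested. These 483 barcodes are few, and the lowest library had 36. The summed NK or ILC1 markers, 9 genes with Eomes among them, were 85.1 to 266 CPM in CD8 T cells and 4.2 to 21.2 CPM in Foxp3-negative cells, with Ncr1, Klra4 and Klra8 at 0 in CD8 T cells. Their part in these differences was not tested.

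Beside the members, Eomes (log2 3.89 ± 0.25 SE), Serpinb9 (log2 1.46 ± 0.13 SE), and the chemokine genes Ccl5 (log2 3.40), Xcl1 (log2 2.78), Ccl4 (log2 2.46) and Ccl3 (log2 1.94) were higher in CD8 T cells. Ifng was lower (log2 -0.48), so that the cytokine list had 4 higher and 1 lower of 5, against 1.95% of all genes called higher and 6.19% either way. Against the same shares, 1 of 7 transcription factors tested was higher (Eomes) and 2 were lower, Zeb2 (log2 -0.89) and Prdm1 (log2 -0.68). In the granzyme processing and cathepsin list 2 of 7 were higher and 1, Ctsb (log2 -0.78), was lower. In the granule and exocytosis list no gene of 10 was higher, and Srgn (log2 -0.49) and Stx11 (log2 -0.95) were lower.

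After DSS, 1 of 7 members tested was called in CD8 T cells, where 3.17% of 3090 genes were called in either direction and 1.68% called lower. Ctla2a read 533 and 825 CPM in untreated wildtype, 764 and 590 in untreated S203AKI, 507 and 453 in DSS wildtype, and 410 and 426 in DSS S203AKI. All DSS values lay below all untreated ones, as in 3.75% of genes (log2 -0.69 ± 0.19 SE, adjusted p = 0.0307, edgeR). The summed Treg markers in these barcodes were 733 to 1405 CPM untreated and 1172 to 1995 CPM after DSS, with 2 of 6 genes higher, and their part in the Ctla2a difference was not tested. The Ctla2a call was lost in 6 of 17 alternatives, including without TMM scaling (adjusted p = 0.0937) and without the second untreated wildtype, the first untreated S203AKI, the second DSS wildtype or the first DSS S203AKI library (adjusted p from 0.0586 to 0.294, edgeR). Nkg7 (log2 -0.45 ± 0.20 SE, adjusted p = 0.202) and Ctsw (log2 -0.90 ± 0.34 SE, adjusted p = 0.14, edgeR) had lower estimates that did not pass. Ctsw passed without the first untreated wildtype, the second DSS wildtype or the first DSS S203AKI library (adjusted p = 0.0319, 0.00905 and 0.013, edgeR). Gzma (log2 -0.28 ± 0.20 SE), Gzmb (log2 -0.28 ± 0.20 SE), Gzmk (log2 -0.21 ± 0.51 SE) and Fasl (log2 0.16 ± 0.37 SE) did not pass either.

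The 30 NK cells were pooled over libraries and not tested. Gzma had 185 UMIs there, or 2715 CPM (95% exact Poisson interval 2337 to 3135, counting error only). Single libraries ran from 0 to 12160 CPM on 2 to 7 cells each, and 99 of the 185 UMIs came from 3 cells of 1 DSS wildtype library. Prf1 had 15 UMIs (220 CPM), Nkg7 78 (1145 CPM), Ctla2a 82 (1203 CPM), Gzmb 32 (470 CPM), Ctsw 24 (352 CPM), Fasl 11 (161 CPM) and Gzmk 1. After thinning, 48.3% of NK cells had 3 or more members.

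The genes whose levels were most like each member were ranked by Pearson correlation of log levels over 24 sums, 3 T cell populations in each of 8 libraries, among 7061 genes. The sums of 1 library share that library, so the values are a description. Gzmb was most like Foxp3 (r = 0.901), followed by Klrg1 (0.874) and Cst7 (0.846). Foxp3 UMIs set the Foxp3-positive and Foxp3-negative populations apart by definition, so that this r largely restates the Gzmb difference between them. Prf1 was most like Eomes (0.919), Nkg7 like Ccl5 (0.911), Ctsw like Cd160 (0.906), Fasl like Mctp2 (0.902) and Gzmk like Pde7a (0.879). Gzma was most like the NK receptor gene Klre1 (0.835), and Ctla2a like ribosomal protein genes, with Rpl32 first (0.856). Among the members, Nkg7 and Ctsw (0.806), Gzmk and Fasl (0.801) and Gzma and Nkg7 (0.793) were closest, and Gzmb and Gzmk were opposed (-0.367).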

How the data were processed

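The authors deposited raw UMI counts per gene and barcode for each of the 8 libraries (3′ droplet chemistry, per the labels' protocols), with 1 list of gene symbols for their rows and a table of the CD4 cells they kept. Cell Ranger 3.1.0, Seurat 4.0.1 and the build mm10 are named in the submitters' processing notes; barcode calling, filters and strand handling are not given in the sources used here. Of the 8 count tables, 1 carried gene IDs, which were paired with the listed symbols by row position. Of those IDs found in the reference annotation, 98.49% had the same symbol. The other tables carried row numbers only, and the same row order was assumed for them. Their log row sums correlated with those of the first at 0.9748 or more, against at most 0.3184 with rows shifted. No per-sample column was left unused (0).

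The members and the wider gene lists were chosen with earlier results of these data known. Barcodes with at least 400 genes and under 20% mitochondrial UMIs were clustered with scanpy 1.11.5 (1749 genes, those left of 2000 variable genes without the members, the wider lists, Foxp3, some cytokine genes, and receptor segment, immunoglobulin, haemoglobin, mitochondrial and sex-linked genes, 30 components, 15 neighbours, Leiden resolution 1). CD4 T cells were cells on the authors' list, which all had a Cd4 UMI, in T cell clusters, split by 1 Foxp3 UMI. CD8 T cells had no Cd4 UMI, a Cd3d, Cd3e or Cd3g UMI and a Cd8a or Cd8b1 UMI. NK cells had none of Cd3d, Cd3e, Cd3g, Cd4, Cd8b1 and 1 further gene, which is not reported here, and UMIs of at least 2 NK genes. No doublet caller was run; 1 alternative kept only barcodes with T cell UMIs and none of other lineages.

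UMIs were summed per library and population and tested with edgeR 4.0.16 (TMM, filterByExpr, robust quasi-likelihood fit, Benjamini-Hochberg over all genes tested, called at an adjusted p under 0.05). Populations were compared with the library as a block, since both come from it. The SE given with edgeR fits is the absolute log2 change divided by the square root of the F statistic. The design asked for at least 10 cells per library, so the planned NK cell tests were not run. Named were the 8 members in each comparison, at most 4 called genes of each wider list with the largest absolute log2 changes, and the genes most correlated with each member. Alternatives used DESeq2 1.42.0, other scaling, filters and gates, and each library left out.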

Additional observations from a re-analysis of the deposited data

Results flagged for a closer look

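Fasl was flagged because its DSS change differed between the CD4 populations by the test of the difference itself: -1.15 ± 0.23 SE on the log2 scale, Foxp3-positive minus Foxp3-negative (adjusted p = 0.000625, edgeR). It fell from 24.6 ± 10.2 to 12.1 ± 1.83 CPM (SD, n = 4 each) in Foxp3-positive cells, while the Foxp3-negative libraries overlapped.

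Gzma in CD8 T cells moved one way after DSS in wildtype and the other way in S203AKI, in every library. Wildtype went from 720 and 1023 CPM untreated to 293 and 490 after DSS (mean 391.4), and S203AKI from 187 and 220 to 357 and 328. The difference was not tested. The share of all genes with such a pattern was not counted, for this result or the next.

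Prf1 in CD8 T cells was higher in both S203AKI than in both wildtype libraries of untreated mice (62.4 and 22.7 against 8.46 and 22.1 CPM, S203AKI mean 42.53) and lower in both after DSS (26.6 and 35.5 against 39.6 and 41.7 CPM). This difference was not tested either, and the untreated values 22.7 and 22.1 CPM are nearly equal. The Prf1 values rest on few UMIs: 12 and 7 against 1 and 3 in untreated mice, and 5 and 4 against 5 and 8 after DSS.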

How the results depend on the processing

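Over 16 counts of called members, 239 of 274 alternative values stayed within 1.5 times the reported count and 35 did not. Of 812 values of single members, 704 kept their direction and side of the threshold, 49 lost a call, 18 gained one and 41 changed sign. All 41 sign changes were of members not called in either fit. A further 9 DESeq2 values had no adjusted p and are not counted. The causes of the changes below were not tested.

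T cells chosen by UMIs alone (1417 Foxp3-positive, 7022 Foxp3-negative and 188 CD8 T cells, so fewer cells) gave 1 in place of 3 members called after DSS in Foxp3-positive cells, 0 in wildtype alone, 0 in S203AKI alone, 0 in Foxp3-negative cells, 0 in CD8 T cells, 4 in place of 8 for CD8 against Foxp3-negative cells, and 2 for the difference in DSS change. Limiting Foxp3-positive cells to the Treg-like clusters, chosen after seeing the data, gave 1, 1 in wildtype, and 0 for the difference. DESeq2 gave 1 in wildtype, with no adjusted p for Fasl and Ctsw, and 2 for the difference. Without the filter on low counts, Foxp3-negative cells had 2 members called after DSS, 1 in wildtype, 1 in S203AKI and 1 for S203AKI against wildtype after DSS (Gzmb, log2 -0.64), and the difference had 2. Without TMM scaling CD8 T cells had 0 after DSS. The difference had 3 with CD4 cells on or off the list and 2 with a gate of 2 Foxp3 UMIs. It had 2 without cluster 17 (led by Ifng, Svs5 and Hspa1b), a choice made after seeing the data.

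Without the replicate block by library, CD8 against Foxp3-negative cells had 4 members called in place of 8, and Foxp3-positive against Foxp3-negative cells 4 in place of 6. Neighbouring animal numbers as a replicate block left 0 members called for genotype and its interaction with DSS. The labels do not pair those animals, so they share only a number.

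Leaving out each library gave 1 to 3 members in wildtype and 1 to 2 in S203AKI Foxp3-positive cells, 0 to 1 in Foxp3-negative cells, 0 to 2 in CD8 T cells and 1 to 3 for the difference. Sign changes on the log2 scale followed. Ctla2a after DSS in Foxp3-positive cells was 0.01 without TMM and 0.01 without a filter, 0.05 with 2 Foxp3 UMIs, 0.27 by UMIs alone, 0.15 in Treg-like clusters, 0 without cluster 17 and -0.19 to 0.16 with a library left out. With a library left out, Gzma there was -0.93 to 0.05 and Gzmk -0.23 to 0.83. In Foxp3-negative cells Fasl was -0.08 to 0.25 and Ctla2a -0.34 to 0.06, and Gzmb was 0.03 by UMIs alone. In CD8 T cells Gzmk was -1.12 to 0.34 and Fasl -0.09 to 0.57. Gzma between the CD4 populations was 0.05 in Treg-like clusters and -0.41 to 0.14 with a library left out. For the difference, Gzma was -0.31 with 2 Foxp3 UMIs, -1.02 by UMIs alone, -0.43 in Treg-like clusters and -0.55 to 0.67 with a library left out. Gzmb there was -0.05 on or off the list, -0.41 by UMIs alone and -0.15 to 0.27 with a library left out, Prf1 -1.15 to 1.30, and Ctsw 0.19 in Treg-like clusters.

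Depth limits perforin most, at under 5 CPM in CD4 T cells, and 36 to 99 CD8 T cells per library leave wide errors. An NK gate of 3 genes left 8 barcodes, too few to test.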

Other observations

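Barcodes that met the NK gate were not taken out of the ILC3-like barcodes without Cd3. These ILC3-like barcodes carried members of the set in every library: Prf1 at 20.1 to 85.8 CPM (median 29.2) and Ctsw at 50.3 to 168 CPM (median 106). The NK or ILC1 genes Ncr1 (4.29 to 70.9 CPM) and Klrb1c (4.29 to 74.6 CPM) were seen in the same barcodes, and their part in these levels was not tested. Granzyme C belongs to a list of 7 other granzymes of which at most 1 was high enough to be tested in any T cell comparison, and none was called. It was seen there at 21.4 to 237 CPM (Gzmc, 186 UMIs) and at no more than 2.22 CPM in fibroblast-like barcodes. Serpinb9, the inhibitor of granzyme B, ran at 509 to 922 CPM in the same ILC3-like barcodes.

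Endothelial-like barcodes had Ctla2a at 562 to 1107 CPM (median 642), above its Foxp3-positive CD4 T cell median of 356 CPM, while their Gzma, Gzmb and Prf1 medians were 1.75, 5.27 and 0.505 CPM. Plasma-like barcodes had Gzma at 12.2 to 32.4 CPM and Prf1 at 6.83 to 10.2 CPM, with Gzmb at a median of 3.54 CPM.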
